A study of Mus musculus with 10 samples.

Results

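The genes described here encode integrin and laminin subunits and the proteins that link laminin networks to each other and to cells. They were taken by symbol from the array annotation, and 38 of the 22180 genes tested were found. The symbols were those of integrin alpha and beta subunits, laminin alpha, beta and gamma chains, the nidogens Nid1 and Nid2, Hspg2, Agrn and Dag1. The symbol rule used no values, but the members were chosen with earlier results of these data known. Itga2b, an integrin alpha subunit, lay outside the rule and is given with the platelet markers. Itga10 was not analysed here. Expression was measured in tracheal tissue from 10 male FVB/NJ mice, 9 weeks old. In the exposed group, 5 mice had breathed chlorine at 235 ppm for 1 hr, with tracheas taken 4 days later, and the unexposed group was 5 mice given no treatment. Tissue beneath the epithelium, labelled mesenchyme, was cut from stained frozen sections by laser, combined over the sections of a mouse, and put on 1 array per mouse. The series title names developing fibrotic lesions, and the comparison asks which transcripts differed while they formed.

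Integrins are cell surface receptors made of an alpha and a beta subunit, and the partners set the ligand: collagens, laminins, matrix proteins with an Arg-Gly-Asp (RGD) motif, or counter-receptors on other cells. Laminins are trimers of an alpha, a beta and a gamma chain that polymerise into the sheet of every basement membrane. Nidogens and perlecan (Hspg2) tie that sheet to the type IV collagen network, and agrin and dystroglycan (Dag1) tie it to cells. In the trachea, laminin receptors anchor basal cells to the basement membrane, and fibronectin receptors serve fibroblasts and cells that migrate in repair.

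The fibroblast markers Col1a1, Col3a1, Dcn, Lum, Pdgfra and others were high in all arrays, with list means of 10.25 to 11.19 on the log2 intensity scale against array medians of 5.10 to 5.18. Epithelial transcripts were present too, at pan-epithelial means (Epcam, Cdh1, Krt8, Krt18, Krt19 and Cldn7) of 8.68 to 9.14 in unexposed and 8.27 to 9.26 in exposed mice, although the label names mesenchyme. Exposed mouse 3 held the lowest pan-epithelial mean and the lowest secretory cell mean (5.26, with 9.29 to 11.23 in its group). The ciliated cell mean of exposed mouse 1 (8.37) was nearest to those of unexposed mice (8.49 to 9.09), so counts are also given without both mice. In tissue pieces of mixed cells, fewer cells of a type and less RNA per cell cannot be told apart.

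Chlorine-exposed mice held more transcript of the laminin chains Lamb1 and Lamc1, of their linker Nid1, and of the integrin subunits Itga5, Itga6, Itgb1, Itgb8 and Itgam. They held less of the laminin chain Lama5 and of the integrin subunits Itga8 and Itgae. Changes ran from 2.51-fold higher (Itgam) to 1.95-fold higher in unexposed mice (Itgae). A gene was called at a limma adjusted p under 0.05, adjusted over all 22180 genes. By that rule 11 of the 38 members (28.9%) were called, where 10.8% of all genes were. Of the members, 8 (21.1%) were called higher and 3 (7.89%) lower, beside 5.85% and 4.97% of all genes. The median log2 change was 0.20 over the members and -0.0035 over all genes, and 28 members lay above 0 and 10 below. The groups did not overlap for 12 members (31.6%), where 11% of all genes did not: 10 of the called ones, plus Itga3 and Lama2. Without exposed mice 1 and 3, 9 members were called higher and 2 lower, beside 6.37% and 6.02% of all genes. The differing members were Itgb2, which gained a call, and Itga8, which lost it.

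**Figure D1:**
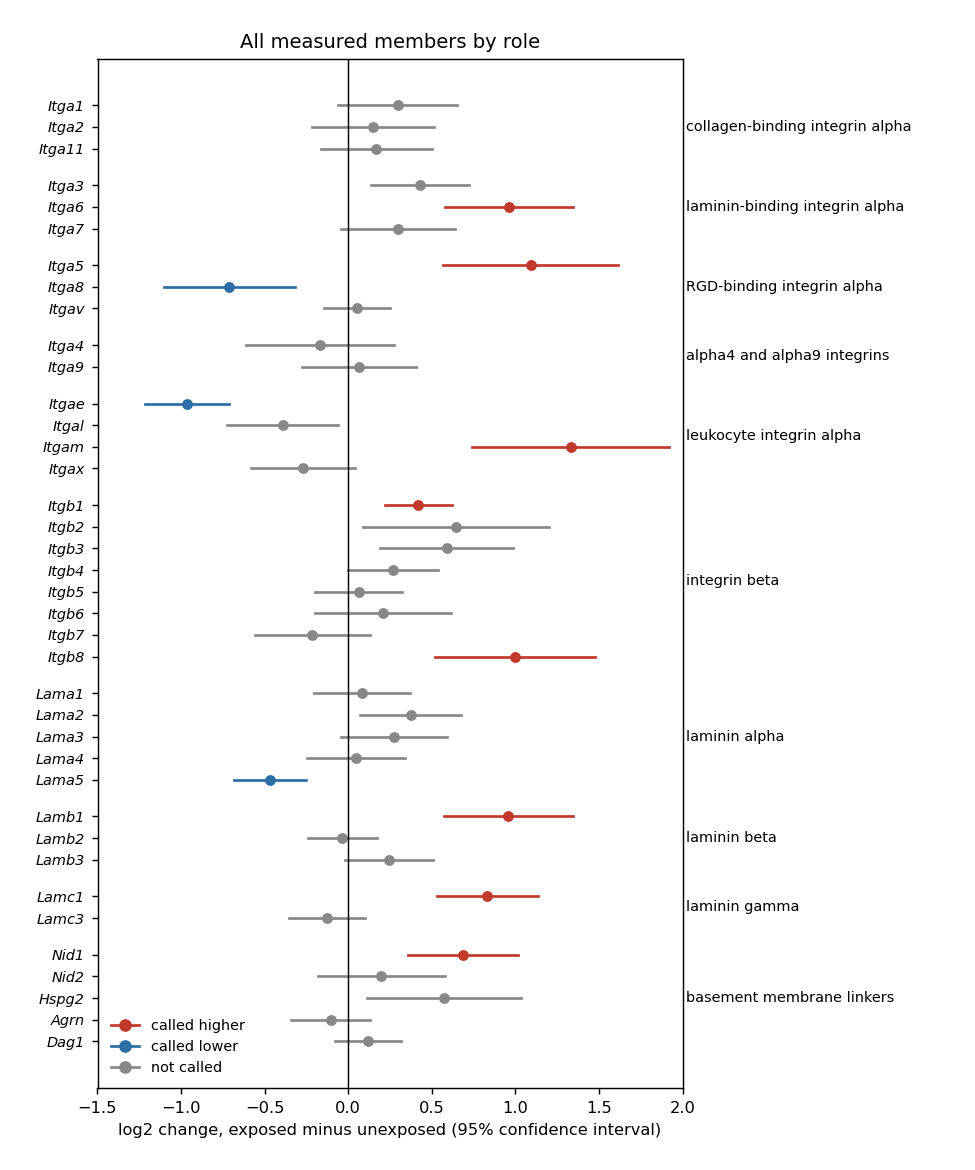
Log2 change of each of the 38 measured genes (x axis, exposed minus unexposed, n = 5 mice per group), with bars for the 95% confidence interval from limma and genes grouped by role on the y axis. Itgam, at 1.33, lies farthest to the right and Itgae, at -0.96, farthest to the left, and each role with a called gene also holds genes that were not called, such as Lamb2 beside Lamb1.

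Among the laminin chains, Lamb1, the beta1 chain of many widespread laminins, stood at 8.19, 8.21, 9.09, 8.63 and 8.38 in exposed mice 1 to 5. In unexposed mice 1 to 5 it stood at 7.38, 7.42, 7.85, 7.66 and 7.40. Every exposed mouse was above every unexposed one, with exposed mouse 3 highest. The rise was 1.94-fold (log2 change 0.96, SE 0.17, adjusted p = 0.0049). Lamc1, the gamma1 chain that most laminins share, measured 9.44, 9.69, 9.96, 9.87 and 9.75 in exposed and 8.68, 8.71, 9.27, 8.88 and 9.00 in unexposed mice. Again the groups did not overlap, exposed mouse 1 being nearest to the unexposed range. On average Lamc1 was 1.78-fold higher after chlorine (log2 change 0.83, SE 0.14, adjusted p = 0.00265). The chains that can take the place of these did not pass: Lamb2 changed by -0.03 (95% confidence interval -0.24 to 0.17), Lamb3, a chain of epithelial laminin, by 0.25 (-0.02 to 0.51) and Lamc3 by -0.13 (-0.36 to 0.10). Whether Lamb1 differed in its change from Lamb2 was not tested.

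Of the 5 alpha chains, which carry most of the binding to cells, 1 fell and 0 rose. Lama5, the alpha chain of laminins beneath epithelium and endothelium, stood at 6.71, 6.35, 6.46, 6.36 and 6.52 in exposed and 7.06, 6.91, 6.93, 7.04 and 6.81 in unexposed mice. All exposed values lay below all unexposed ones, and exposed mouse 1 was closest. Lama5 fell by 0.47 on the log2 scale (SE 0.10, adjusted p = 0.0107), and unexposed mice held 1.38-fold more. Lama2, the alpha chain of muscle and nerve laminin, was 7.98 to 8.66 in the exposed group and 7.60 to 7.95 in unexposed mice, without overlap, but did not pass (change 0.37, adjusted p = 0.115). Lama4, the alpha chain of vessel and mesenchymal laminins, changed by 0.05 (95% confidence interval -0.25 to 0.34). Lama3, the epithelial alpha chain of hemidesmosomes, changed by 0.27 (-0.05 to 0.59), with exposed mouse 4 at 7.64 and the rest of its group at 6.85 to 7.06. Lama1, an alpha chain of early embryos, stayed under the array medians in every mouse (4.16 to 4.88) and changed by 0.08. Of 10 laminin chains measured, 2 rose, 1 fell and 7 did not pass. Over all genes, 5.85% were called higher and 4.97% lower.

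Nid1, which binds the gamma1 laminin chain and type IV collagen, measured 8.35, 8.68, 8.91, 8.78 and 8.83 in exposed and 7.87, 7.68, 8.42, 8.09 and 8.05 in unexposed mice. The groups overlapped at a single point, exposed mouse 1 lying below unexposed mouse 3. Nid1 rose by 0.69 on the log2 scale, or 1.61-fold (SE 0.15, adjusted p = 0.0136). Its 2 probe sets rose by 0.77 and 0.60 (adjusted p = 0.0104 and 0.0339). Nid2, the second nidogen, changed by 0.20 (95% confidence interval -0.18 to 0.58). The difference between the nidogens in their change was not tested. Hspg2, the heparan sulfate proteoglycan perlecan, was 7.96, 8.25, 9.14, 8.52 and 8.23 in exposed and 7.59, 7.73, 8.15, 7.62 and 8.15 in unexposed mice. Exposed mouse 3 stood apart at the top and exposed mouse 1 within the unexposed range, and Hspg2 did not pass (change 0.57, 95% confidence interval 0.11 to 1.04, adjusted p = 0.115). Agrn, a laminin-binding proteoglycan, changed by -0.10 and Dag1, the dystroglycan receptor for laminin, by 0.12 (adjusted p = 0.621 and 0.472). Dag1 was nearly level among exposed mice, at 7.54 to 7.58, and ranged from 7.28 to 7.67 in unexposed mice.

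Beside these matrix genes, 4 of 8 fibroblast markers rose (Col1a1, Col3a1, Pdgfra and Vim) and 0 fell, and the list mean ran from 10.56 to 11.19 after exposure and from 10.25 to 10.56 without it. Col1a2, Lum, Dcn and Dpt changed by 0.34, 0.34, -0.14 and -0.07 and did not pass. The fibroblast median log2 change was 0.50. With 1 mouse left out, Vim lost its call in 7 of 10 fits (all but those lacking exposed mouse 1, 3 or 5), Pdgfra in 2 (lacking unexposed mouse 1 or 5) and Col1a1 in 1 (lacking exposed mouse 4). Of 8 endothelial markers only Tek rose (list means 6.63 to 7.44 against 6.28 to 6.95), and it kept its call in 2 of those fits (lacking exposed mouse 1 or unexposed mouse 3). Of 7 smooth muscle markers 0 passed, with list means of up to 10.73 and 10.77. Of 8 cartilage markers Matn1 and Matn3 fell and 0 rose (median -0.91), Matn3 losing its call in 6 of the 10 fits (those lacking exposed mouse 2, 4 or 5 or unexposed mouse 2, 3 or 5). Marker genes are named here after their values were seen. Exposed mouse 3, which was highest for Lamb1, Lamc1, Nid1 and Hspg2, also held the highest fibroblast and endothelial means of its group. That was not particular to these lists. The same mouse was highest of its group for the macrophage and monocyte, neutrophil, platelet, smooth muscle, Schwann cell and cartilage means. It was lowest for the pan-epithelial, basal, secretory and T and NK means. The part of cell makeup in these changes was not tested.

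RefSeq promoter windows (GRCm38.p6, 250 bases before to 50 after the start) were matched to 25 of the 38 members. The called members Lamc1, Itga6 and Itgae were among those without a window, so the counts below leave them out. Those of Lamb1 and Nid1 are shown because these genes rose together and both were in the table. Capitals mark matches on either strand to a GC box (GGGCGG), the PU-box core (GAGGAA) or a TEAD core (GGAATG). Lamb1 lies at chr12:31265043-31265342 and Nid1 at chr13:13437352-13437651, both on the + strand.
Lamb1: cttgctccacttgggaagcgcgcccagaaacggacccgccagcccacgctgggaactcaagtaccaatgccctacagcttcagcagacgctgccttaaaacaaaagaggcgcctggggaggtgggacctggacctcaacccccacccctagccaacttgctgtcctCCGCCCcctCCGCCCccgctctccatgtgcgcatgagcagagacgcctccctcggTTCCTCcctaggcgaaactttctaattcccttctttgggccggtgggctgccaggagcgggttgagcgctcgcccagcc
Nid1: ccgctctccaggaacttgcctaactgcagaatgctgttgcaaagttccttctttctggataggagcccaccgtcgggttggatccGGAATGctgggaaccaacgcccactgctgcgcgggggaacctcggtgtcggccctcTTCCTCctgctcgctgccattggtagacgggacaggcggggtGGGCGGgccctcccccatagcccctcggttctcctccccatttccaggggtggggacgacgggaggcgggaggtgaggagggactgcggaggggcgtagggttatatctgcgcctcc
Lamb1 held 2 GC boxes, against 1 in Nid1, and each held 1 PU-box core, while a TEAD core occurred in Nid1 alone of this pair. Over the 8 windows of called members, 6 held a GC box and 6 a PU-box core, where 35.66% and 28.28% of all 32851 windows did. In the 22 windows of members not called the counts were 12 and 8. An AP-1 motif (TGACTCA, read on both strands) was in 0 of the 8 called and 2 of the 22 other windows, and in 5.2% of all windows. A TEAD core was in 2 of the 8 and 1 of the 22, and in 14.66% of all windows. These letters are a description of the windows and were not tested.

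Among laminin-binding integrin alpha subunits, Itga6, which pairs with beta4 in the hemidesmosomes of basal cells and with beta1 elsewhere, measured 8.69, 8.71, 8.01, 9.06 and 8.54 in exposed mice. In unexposed mice it measured 7.68, 7.89, 7.66, 7.62 and 7.35. The groups did not overlap, and exposed mouse 3, the mouse with the least epithelial transcript, came nearest to the unexposed range. Itga6 rose 1.95-fold (log2 change 0.96, SE 0.17, adjusted p = 0.00477). With the pan-epithelial mean as a covariate its change was 0.98 (adjusted p = 0.000669). Itgb4, its hemidesmosomal partner, was 7.42, 7.54, 7.32, 7.84 and 7.39 in exposed and 7.33, 7.19, 7.46, 7.20 and 7.004 in unexposed mice, which overlapped, and did not pass (change 0.27, 95% confidence interval -0.0015 to 0.54, adjusted p = 0.208). Itga3, another laminin receptor of epithelium, was 7.48 to 7.94 in the exposed group and 6.92 to 7.44 in unexposed mice, without overlap. It did not pass (change 0.43, adjusted p = 0.0638), and was called without exposed mouse 1 (0.48, adjusted p = 0.0490). Itga7, the laminin receptor of muscle, changed by 0.30 (adjusted p = 0.277).

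Of the 8 basal cell markers measured, Krt14, Krt17 and Dsg3 rose and Dlk2 fell, with list means of 7.34 to 8.75 in the exposed group and 7.11 to 7.53 in unexposed mice. Those 3 rises (4.31, 1.86 and 3.97) carried the higher mean, and the list's median log2 change was 0.14. Trp63, the basal cell transcription factor, changed by -0.40, Krt15 by -0.52, Ngfr by -0.12 and Aqp3 by 0.40, none of which passed. Dlk2 (-0.50) kept its call in 1 of 10 fits, that lacking unexposed mouse 1 (adjusted p up to 0.111). Of the 6 pan-epithelial genes 0 passed. Of 8 ciliated cell markers, Cdhr3, Sntn, Tmem212 and Dnah5 fell and 0 rose (median -2.25), Tmem212 losing its call without exposed mouse 4, unexposed mouse 1 or unexposed mouse 4. Of 8 secretory cell markers, Bpifb1 and Sec14l3 fell and 0 rose (median -2.48). The exposed mouse with the lowest Itga6, mouse 3, also had the lowest basal mean. The hemidesmosome partners were fixed as a list, with a median log2 change of 0.24. Of 6 measured, 2 rose and 0 fell, beside 5.85% and 4.97% of all genes. Both are named next: the basal keratin Krt14 (4.31, adjusted p = 6.77e-06), also a basal marker, and Col17a1, the transmembrane collagen that joins keratin to laminin (0.53, adjusted p = 0.0165). The part of basal cells in the Itga6 change was not tested.

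Of the RGD-binding alpha subunits, Itga5 rose, Itga8 fell and Itgav did not pass. Itga5, the fibronectin receptor alpha subunit, stood at 8.06, 8.35, 8.97, 8.68 and 8.05 in exposed and 6.80, 7.01, 7.81, 7.22 and 7.81 in unexposed mice. The groups were apart, with exposed mouse 3 highest and unexposed mice 3 and 5 nearest to the exposed range. Itga5 rose 2.13-fold (log2 change 1.09, SE 0.24, adjusted p = 0.0135). Itga8, a receptor for nephronectin and fibronectin found on smooth muscle and mesenchymal cells, measured 7.81, 7.76, 7.93, 7.57 and 8.07 in exposed and 8.33, 8.08, 8.97, 8.37 and 8.95 in unexposed mice. Exposed mouse 5 and unexposed mouse 2 nearly met. Itga8 fell by 0.71 on the log2 scale (SE 0.18, adjusted p = 0.0262), and unexposed mice held 1.64-fold more. Removing exposed mouse 2 or 4 took away its call (adjusted p = 0.0574 and 0.0664), as did removing unexposed mouse 3 or 5 (adjusted p = 0.0587 and 0.0595). Over the 10 mice left out, its change ran from -0.82 to -0.60. Itgav, the alpha subunit shared by most receptors that release latent TGF-beta, changed by 0.05 (95% confidence interval -0.15 to 0.25).

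Of the beta subunits, Itgb1, the partner of most alpha subunits, measured 10.003, 10.17, 10.15, 10.002 and 9.95 in exposed and 9.51, 9.61, 9.81, 9.57 and 9.68 in unexposed mice. The groups did not overlap, and the spread within each was small (SD 0.10 and 0.12). Itgb1 rose 1.34-fold (log2 change 0.42, SE 0.09, adjusted p = 0.0133). Itgb8, which pairs with alphav and binds latent TGF-beta, stood at 6.36, 6.56, 7.42, 7.43 and 6.72 in exposed and 6.08, 5.77, 5.93, 5.57 and 6.16 in unexposed mice. Exposed mice 3 and 4 were set above the others, and no value overlapped. Itgb8 rose 2.00-fold (log2 change 1.00, SE 0.22, adjusted p = 0.0135). Itgb3, the beta subunit of platelets, osteoclasts and vessel cells, was 6.10, 6.24, 7.02, 6.63 and 6.66 in exposed and 5.75, 5.78, 6.05, 5.77 and 6.36 in unexposed mice. It overlapped through unexposed mouse 5 and did not pass (change 0.59, adjusted p = 0.0631). Removal of exposed mouse 1 gave a call at a change of 0.70 (adjusted p = 0.0258), and so did removal of unexposed mouse 5, at 0.69 (adjusted p = 0.0399). Itgb5 and Itgb6, further partners of alphav, changed by 0.06 and 0.21 (adjusted p = 0.809 and 0.562).

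Of 6 platelet markers, Ppbp and Pf4 rose, with list means of 6.21 to 7.17 in the exposed group and 5.16 to 5.70 in unexposed mice. Ppbp (5.05) and Pf4 (1.38) carried the higher mean, and the list's median log2 change was 0.22. Gp9, Gp5 and Treml1 changed by 0.09, -0.14 and -0.20 and did not pass. The alpha partner of Itgb3 in platelets, Itga2b, which is on that list, changed by 0.36 (adjusted p = 0.111). The part of platelets in the Itgb3 values was not tested.

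The promoter windows of Itga5 and Itgb1, the subunits of the fibronectin receptor alpha5beta1, are given because both rose. Itga5 lies at chr15:103366742-103367041 on the - strand and Itgb1 at chr8:128685404-128685703 on the + strand, with the same motifs in capitals.
Itga5: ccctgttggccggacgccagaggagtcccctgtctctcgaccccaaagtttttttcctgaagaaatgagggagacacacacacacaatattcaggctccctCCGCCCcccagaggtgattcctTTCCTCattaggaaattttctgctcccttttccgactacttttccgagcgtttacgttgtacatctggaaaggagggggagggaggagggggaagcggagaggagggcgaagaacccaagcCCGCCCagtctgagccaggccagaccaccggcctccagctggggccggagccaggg
Itgb1: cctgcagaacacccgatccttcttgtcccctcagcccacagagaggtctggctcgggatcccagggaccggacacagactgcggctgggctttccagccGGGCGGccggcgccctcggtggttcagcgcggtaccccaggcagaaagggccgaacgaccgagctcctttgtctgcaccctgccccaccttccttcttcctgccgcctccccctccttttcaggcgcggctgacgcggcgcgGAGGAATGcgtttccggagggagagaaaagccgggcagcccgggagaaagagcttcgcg
Itga5 held 2 GC boxes and 1 PU-box core, and Itgb1 1 GC box and 1 PU-box core that overlaps a TEAD core.

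**Figure D2:**
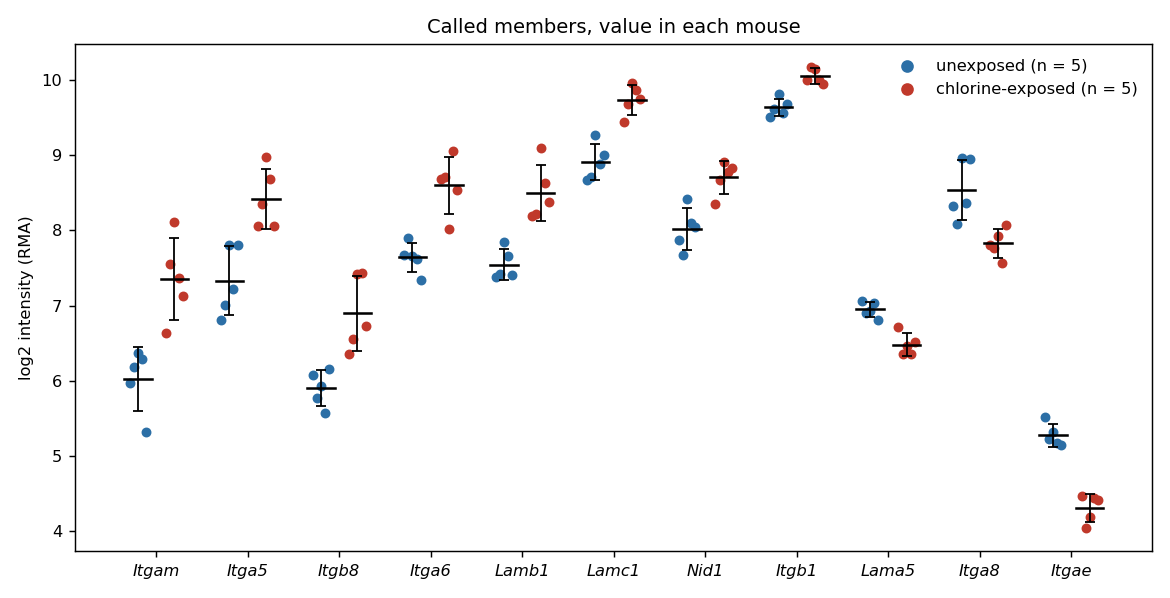
Log2 intensity (y axis) of the 11 called genes in each unexposed (blue) and chlorine-exposed (red) mouse, ordered from the largest rise to the largest fall, with the mean and SD of 5 mice in black. Of the 8 genes that rose, Nid1 alone has an exposed mouse (8.35) below an unexposed one (8.42), and for the 3 that fell all exposed mice lie below all unexposed ones.

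The collagen-binding alpha subunits did not pass. Itga1, found on smooth muscle, fibroblasts and lymphocytes, was 6.53 to 7.22 in the exposed group and 6.35 to 6.96 in unexposed mice (change 0.30, 95% confidence interval -0.06 to 0.65). Itga2, the collagen receptor of epithelium and platelets, changed by 0.15 (-0.22 to 0.51). Itga11, a collagen receptor of fibroblasts, changed by 0.17 (-0.17 to 0.50), and exposed mouse 3 lay above the rest at 6.86, with 6.07 to 6.29 in the others. Itga9, which binds tenascin C, changed by 0.06 (-0.28 to 0.41), and Itga4, the receptor for Vcam1 and fibronectin on leukocytes, by -0.17 (-0.61 to 0.27). 

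Of the leukocyte alpha subunits, Itgam rose, Itgae fell, and Itgal and Itgax did not pass. Itgam, the alphaM subunit of macrophages and neutrophils that binds complement fragment iC3b and fibrinogen, measured 6.63, 7.55, 8.12, 7.36 and 7.13 in exposed and 5.97, 6.18, 6.37, 6.30 and 5.32 in unexposed mice. Exposed mouse 1 was lowest and exposed mouse 3 highest of their group, and all 5 were above the unexposed mice. Itgam rose 2.51-fold (log2 change 1.33, SE 0.27, adjusted p = 0.00855). Itgb2, the beta subunit that alphaM, alphaL and alphaX all need, was 6.47, 7.61, 8.06, 7.49 and 6.95 in exposed and 6.80, 6.58, 6.90, 6.71 and 6.36 in unexposed mice. Exposed mouse 1 lay inside the unexposed range, and Itgb2 did not pass (change 0.65, adjusted p = 0.137). It was called without exposed mouse 1 (0.86, adjusted p = 0.0175). Itgax, a subunit of dendritic cells and some macrophages, lay at 4.38 to 4.96 and 4.59 to 5.19 (change -0.27, adjusted p = 0.278), near the array medians or under them.

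Itgae, the alphaE subunit by which lymphocytes and some dendritic cells hold on to E-cadherin of epithelium, measured 4.47, 4.04, 4.19, 4.44 and 4.41 in exposed mice. In unexposed mice it measured 5.52, 5.23, 5.31, 5.17 and 5.14. No value overlapped, and the gap between the groups was wider than the range within either. It fell by 0.96 on the log2 scale (SE 0.11, adjusted p = 0.000368). Exposed values lay under all array medians and unexposed ones at or just above them, and because no limit of detection could be set, how large the fold is stays uncertain. Itgb7, the partner of alphaE, was 5.17 to 5.94 in the exposed group and 5.53 to 6.06 in unexposed mice and did not pass (change -0.21, adjusted p = 0.464). Itgal, the alphaL subunit of lymphocytes, was 5.07, 5.04, 5.03, 5.75 and 4.96 in exposed and 5.62, 5.40, 5.56, 5.78 and 5.45 in unexposed mice. All exposed mice but mouse 4 lay below the unexposed range. Itgal did not pass with that mouse (change -0.39, adjusted p = 0.133) and did without it (-0.54, adjusted p = 0.0096). In exposed mice 1, 2, 3 and 5 Itgal lay under all array medians, so how large its fall is stays uncertain too.

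Markers of leukocytes moved beside these subunits. Of 10 macrophage and monocyte markers, 6 rose (Adgre1, Cd68, Fcgr1, C1qa, C1qb and C1qc) and 0 fell, with means of 7.74 to 8.37 in the exposed group and 7.17 to 7.57 in unexposed mice. Lyz2, Cd14, Ptprc and Csf1r changed by -0.34, -0.28, 0.22 and 0.40 and did not pass. The median log2 change of that list was 0.76, and Adgre1 lost its call in 5 of 10 fits (adjusted p up to 0.0716, those lacking exposed mouse 2 or any unexposed mouse but mouse 2). The lowest of the exposed means was that of mouse 1 and the highest that of mouse 3, as for Itgam and Itgb2. The neutrophil, fibroblast, endothelial and platelet means had the same lowest and highest exposed mice, so this order was not particular to macrophage markers. Of 7 neutrophil markers, S100a8 and S100a9 rose and 0 fell (means 4.69 to 5.88 and 3.94 to 4.32, median log2 change 0.88). Retnlg, Cxcr2, Csf3r, Ly6g and Ngp changed by 0.91, 0.88, 0.55, 0.29 and 0.10 and did not pass. S100a9 lost its call in 4 of 10 fits (adjusted p up to 0.0624, those lacking mouse 2 or 4 of the exposed or mouse 1 or 5 of the unexposed). Of 8 T and NK cell markers, Cd3g and Ncr1 fell and 0 rose (median -0.50). Gzma went the other way, at 0.60, and did not pass (adjusted p = 0.223), but was called higher without exposed mouse 3 (adjusted p = 0.0368). Cd3e, Cd3d, Cd8a, Cd4 and Nkg7 changed by -0.89, -0.55, -0.50, -0.18 and -0.11 and did not pass. Ncr1 kept its call in 3 of 10 fits (those lacking mouse 1 or 4 of the exposed or mouse 2 of the unexposed), with adjusted p up to 0.0810 over all 10. The T and NK means were 4.48 to 4.57 in exposed mice 1, 2, 3 and 5, 5.68 in exposed mouse 4, and 5.01 to 5.42 in unexposed mice. Exposed mouse 4 thus stood high for Itgal and for the T and NK list, and not for Itgae, which was 4.44 there. The part of cell numbers in these values was not tested.

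**Figure D3:**
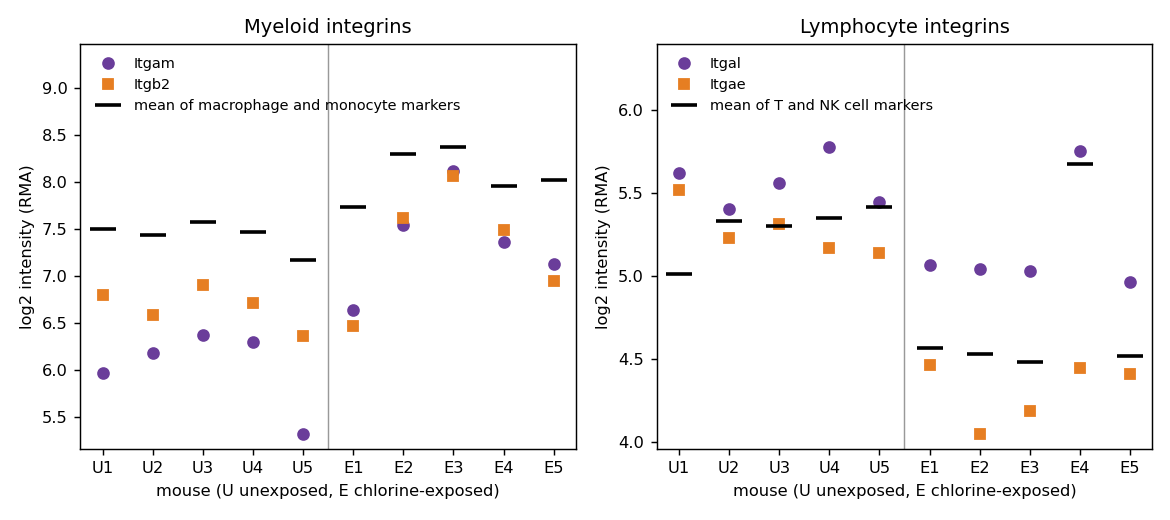
Log2 intensity (y axis) by mouse (x axis) of Itgam and Itgb2 with the mean of 10 macrophage and monocyte markers (left), and of Itgal and Itgae with the mean of 8 T and NK cell markers (right). Levels of different probes are not comparable with each other. Exposed mouse 4 is the exposed mouse with high Itgal (5.75) and a high T and NK mean (5.68), and its Itgae (4.44) stays with its group.

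The promoter window of Itgam is shown because PU.1, the myeloid transcription factor, is known to act at it. It lies at chr7:128062390-128062689 on the + strand.
Itgam: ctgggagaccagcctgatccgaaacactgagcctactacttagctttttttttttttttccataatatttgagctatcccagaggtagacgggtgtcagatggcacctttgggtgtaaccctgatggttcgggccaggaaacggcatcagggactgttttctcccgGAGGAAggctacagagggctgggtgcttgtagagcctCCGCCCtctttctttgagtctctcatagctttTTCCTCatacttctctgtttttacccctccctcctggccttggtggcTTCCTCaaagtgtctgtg
It held 3 PU-box cores, and 0.68% of all windows held 3 or more. It also held 1 GC box. The cut of 3 PU-box cores equals the count in this window, and the share is a description that was not tested.

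Exposed mice differed among themselves in these genes. The median SD over the 38 members was 0.27 in exposed and 0.20 in unexposed mice, and 0.22 and 0.19 over all genes. Exposed mouse 3 held the highest value of its group for 18 members (29.6% of all genes) and exposed mouse 4 for 12 (17.9% of all genes). Exposed mouse 1 held the lowest value for 18 members (23.6% of all genes). Exposed mouse 2 was highest for 1 member, Itgb1. Within every called rise except those of Itga6, Itgb1 and Itgb8, exposed mouse 3 was the highest mouse.

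**Figure D4:**
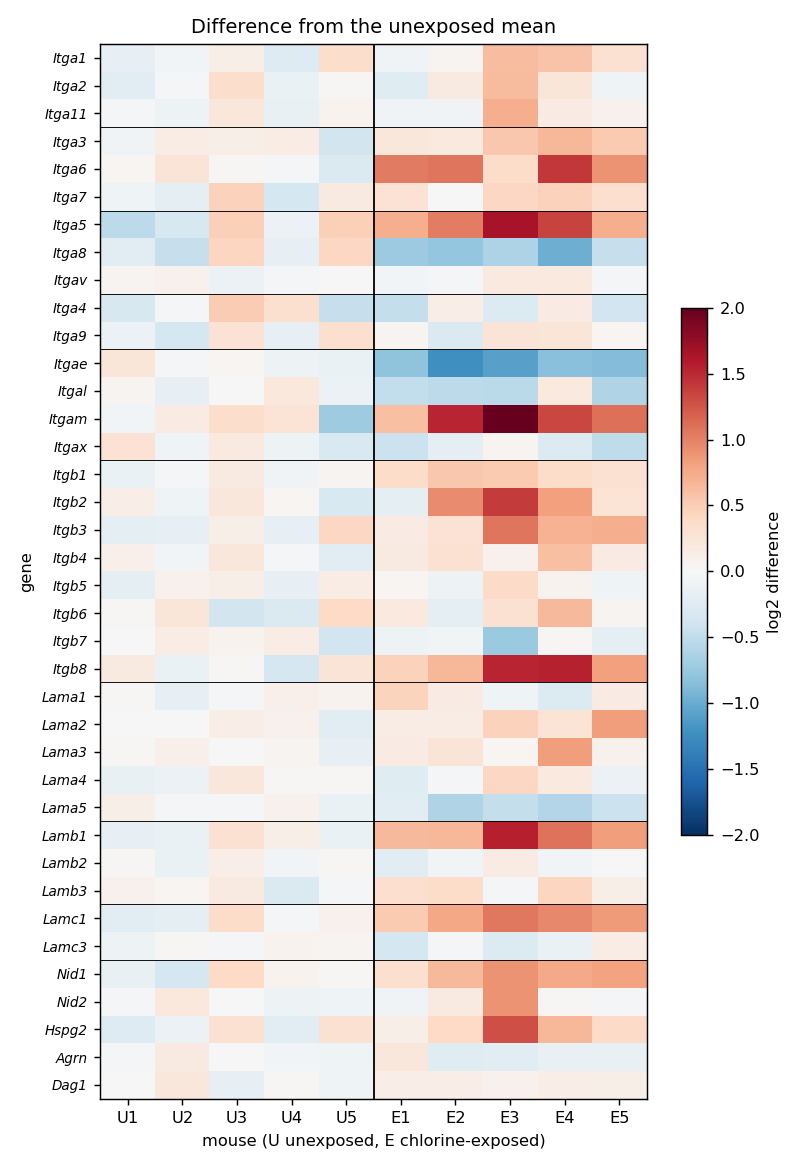
Log2 difference of each mouse (columns, 5 unexposed then 5 exposed) from the mean of the unexposed mice, for the 38 genes in rows grouped by role, on a colour scale from -2 to 2. Exposed mouse 3 shows the strongest red for Itgam, Itga5, Lamb1 and Hspg2, and Itgae and Lama5 are blue in every exposed mouse.

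Ligands and partners of these proteins were followed as lists. Their counts stand beside 10.8% of all genes called, 5.85% higher and 4.97% lower. Fits that each left out 1 of the 10 mice are given where they ended a call. Of 9 basement membrane collagens, 3 rose and 2 fell (median log2 change -0.03). Col4a1 and Col4a2, the widespread type IV chains to which nidogen binds, rose by 1.497 and 1.36 (adjusted p = 0.00133 and 0.00159). In exposed mice 1 to 5, Col4a1 stood at 7.81, 7.73, 8.76, 8.09 and 8.11, and in unexposed mice at 6.06, 6.42, 7.06, 6.67 and 6.79, so that mouse 3 was again the highest. Of the chains of more restricted networks, Col4a6 and Col4a4 fell (-0.44 and -0.38). Each lost its call in 8 of the 10 fits. Col4a6 kept it when either mouse numbered 1 was removed (adjusted p over the fits 0.0211 to 0.102), and Col4a4 when exposed mouse 3 or unexposed mouse 1 was (0.0141 to 0.0740). The third rise was that of Col18a1, the collagen that yields endostatin (0.82, adjusted p = 0.0193), named outside the rule after its values were seen. It was not called when exposed mouse 4 or unexposed mouse 1 or 2 was removed (adjusted p over the fits 0.00255 to 0.0522).

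Of 14 genes listed as other basement membrane components, 2 rose and 1 fell (median -0.10), beside 5.85% and 4.97% of all genes. The list also held Usp11 (-0.25, not called), which is an enzyme inside the cell. Ecm1, a secreted glycoprotein that binds perlecan, rose by 1.16 (adjusted p = 0.000214) and Pxdn, the peroxidase that crosslinks type IV collagen, by 0.95 (adjusted p = 0.0193). Egfl6, a basement membrane ligand of alpha8 integrin, fell by 0.69 (adjusted p = 0.0202), and Npnt, the main ligand of that receptor, changed by -0.11 (adjusted p = 0.701). Pxdn was not called once unexposed mouse 1 was removed (adjusted p = 0.0514). Egfl6 was not called once exposed mouse 5 or unexposed mouse 4 was (adjusted p over the fits 0.00122 to 0.0540).

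Of 16 RGD and provisional matrix ligands, 4 rose and 0 fell (median 0.24), beside 5.85% and 4.97% of all genes. Tenascin C (Tnc) rose by 2.46 and thrombospondin 1 (Thbs1) by 1.48 (adjusted p = 0.000783 and 0.000619). Fn1, the ligand of alpha5beta1, changed by 0.60 and did not pass (adjusted p = 0.175). Ltbp1, which holds latent TGF-beta in the matrix where alphav integrins act, rose by 0.63 (adjusted p = 0.00198). The fourth rise was that of Emilin1, an elastic fibre glycoprotein (0.71, adjusted p = 0.0335), which lost its call in 7 of the 10 fits and kept it when exposed mouse 1, 3 or 5 was removed (adjusted p over the fits 0.0128 to 0.0778). Ltbp1, Emilin1, Npnt, Fn1 and Icam1 are named outside the rule, after their values were seen. Of 9 ligands of leukocyte integrins, 1 was called, near the 10.8% of all genes called. That was Vcam1, bound by alpha4 integrins, which rose by 1.34 (adjusted p = 0.00999). The other 8 did not pass, Icam1 among them at 0.03.

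Inside the cell, of 22 integrin activators and focal adhesion genes, 2 rose and 3 fell (median 0.12), where 5.85% and 4.97% of all genes did. Tns4, a tensin of epithelium that lacks the actin-binding part of its relatives, rose by 0.94 (adjusted p = 0.00487), and Tns3 and Tns2, tensins that bind actin, fell by 0.56 and 0.47 (adjusted p = 0.0161 and 0.0313). Parvb, an adaptor of integrin-linked kinase, rose by 0.89 (adjusted p = 0.0429). The third fall was that of Parva, its relative (-0.36, adjusted p = 0.0301). Tns2 lost its call in 9 of the 10 fits and kept it on removal of exposed mouse 3 (adjusted p over the fits 0.00239 to 0.0748). Parvb lost it in 7 and kept it on removal of exposed mouse 1, exposed mouse 5 or unexposed mouse 4 (0.0292 to 0.102). Parva lost it in 7 and kept it on removal of exposed mouse 1, exposed mouse 2 or unexposed mouse 5 (0.0246 to 0.0719). The talins Tln1 and Tln2 and the kindlin Fermt2, which activate integrins, changed by 0.18, 0.11 and -0.02. These 3 and Parva are named outside the rule, after their values were seen.

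Of 9 genes listed as integrin inhibitors and trafficking genes, 1 was called, near the 10.8% of all genes called. That was Dab2, an endocytic adaptor for integrin beta tails, which rose by 0.52 (adjusted p = 0.0431). The other 8 did not pass, among them Mdga1 (0.14), which is an adhesion protein of the cell surface. In 8 of the 10 fits Dab2 was not called, the others being those that removed exposed mouse 1 or 4 (adjusted p over the fits 0.0187 to 0.0966). Of 17 genes of the dystroglycan complex and the enzymes that make its laminin-binding glycan, 1 rose and 2 fell (median -0.12). B4gat1, an enzyme that primes that glycan, rose by 0.64 (adjusted p = 0.00777). Sntb1 and Dtna, a syntrophin and a dystrobrevin of the cytoplasmic side, fell by 0.88 and 0.52 (adjusted p = 0.000442 and 0.0288). Dtna was not called in 6 of the 10 fits, those that removed exposed mouse 2, exposed mouse 5 or any unexposed mouse but mouse 2 (adjusted p over the fits 0.0208 to 0.0694).

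**Figure D5:**
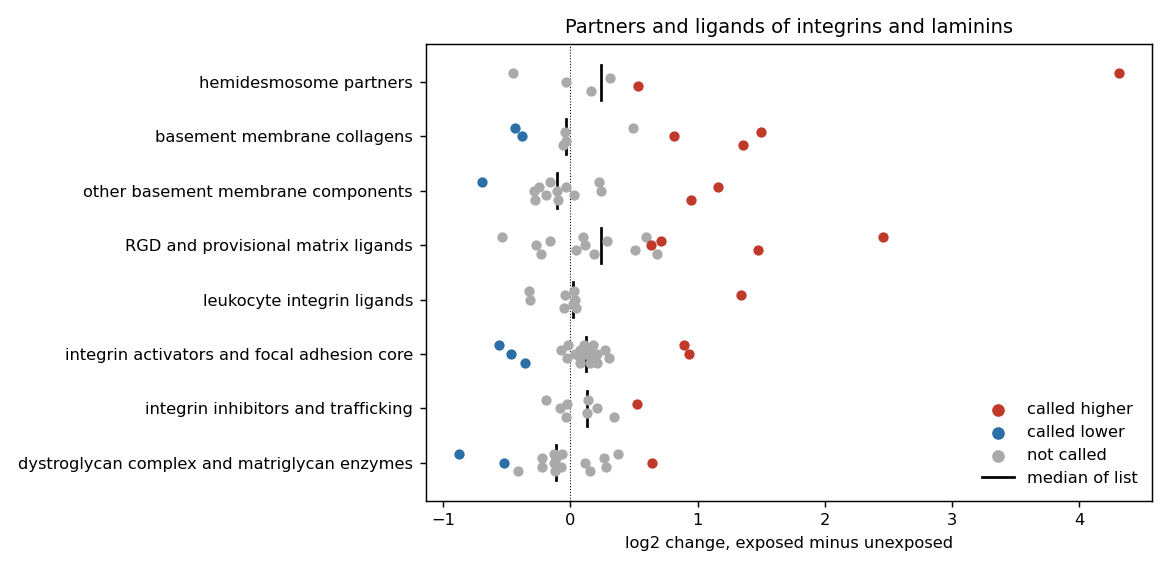
Log2 change (x axis, exposed minus unexposed, n = 5 per group) of the genes of 8 lists of partners and ligands (y axis), coloured by whether they were called, with a black line at each list's median. Krt14 (4.31) and Tnc (2.46) lie farthest to the right, and the list medians lie between -0.12 and 0.24.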

How the data were processed

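Gene expression was measured on 1 array per mouse in 5 chlorine-exposed and 5 unexposed mice, which are separate animals. The deposited values are log2 intensities per probe set. The submitters' processing notes name Partek 6.6 and RMA, a robust averaging of probes over arrays. The log base was read from the range of the values. For the RMA settings and the genome build, the sources used here give nothing. Of 41345 probe sets, 23521 carried 1 gene symbol in the platform annotation, 1814 several and 16010 were not listed. Probe sets with several symbols, among them 1 each naming Itgb4 and Itga4 with another gene, were left out. Values were averaged per symbol, which gave 22180 genes. Nid1 and Itgav had 2 probe sets, and the other 36 members 1. No value was filtered in the main fit, so all 38 members entered it.

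The difference between groups was fitted per gene in R 4.3.3 by limma 3.58.1, with lmFit then eBayes, two-sided and without covariates. P-values were adjusted by Benjamini-Hochberg over all genes, and the code was tested on simulated data. Every called member is given by mouse, and from each partner list up to 2 called rises and 2 called falls with the largest changes are named. Lists are described by counts and medians, with no test of the list. The members and lists were chosen with earlier results of these data known. Other settings changed the scaling (a further quantile step, or median centring), removed dim genes in either of 2 ways, or took the brightest or each probe set of a gene. Others changed the variance model (trend with robust eBayes, or weights per array), added the mouse number or the pan-epithelial mean to the design, raised the threshold, or left out mice. No detection limit was at hand, and the number of arrays limits the precision. Promoter windows came from RefSeq (GRCm38.p6). Tables and figures were made in Python 3.11.15 with pandas 2.3.3 and matplotlib 3.10.9.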

Additional observations from a re-analysis of the deposited data

Results flagged for a closer look

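Values were examined for a mouse that stood apart from the other 4 of its group by more than the gap that chance gives in about 1 of 20 groups (Dixon's test). Of 76 groups (38 genes in 2 groups of mice), 8 held such a mouse. Exposed mouse 3 was high for the fibroblast collagen receptor Itga11 (6.86, others 6.07 to 6.29) and for Nid2 (7.49, others 6.52 to 6.76), and low for Itgb7 (5.17, others 5.72 to 5.94). Exposed mouse 4 was high for Itgal (5.75, others 4.96 to 5.07) and for the epithelial laminin chain Lama3 (7.64, others 6.85 to 7.06). Exposed mouse 1 was high for Agrn (7.27, others 6.80 to 6.90). Among unexposed mice, mouse 5 was low for Itgb7 (5.53, others 5.93 to 6.06) and mouse 2 high for Nid2 (6.80, others 6.49 to 6.57). None of these 6 genes was called.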

How the results depend on the processing

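Over the 24 other settings tried, the 38 member changes gave 825 values, of which 788 stayed on their side of the threshold, 17 passed it newly, 20 no longer passed, and 0 turned a called direction. At an adjusted p under 0.01, 4 members were higher and 1 lower, beside 619 and 435 of all genes. With at least a 2-fold difference required, 2 were higher (Itgam and Itga5) and 0 lower, beside 411 and 349 of all genes. With 1 mouse left out, 8 to 11 members were called higher and 2 to 3 lower, and 944 to 1432 and 723 to 1407 of all genes, with 725 and 723 genes lower without unexposed mouse 1 and unexposed mouse 4. Itga8 alone of the called members lost its call when mice were left out. Of the members not called, Itgb3 passed in 8 settings, Itga3 in 5, Itgb2 in 2 and Itgal and Hspg2 in 1 each, that of Hspg2 being the pan-epithelial covariate (0.55, adjusted p = 0.00575). Centring moved the median of all genes by 0.030 and another quantile normalization by 0.010. The mouse number did not pair the groups: deviations of same-numbered mice correlated at -0.049 to 0.125. With that number as a replicate block, 9 members were higher (Itgb3 in addition, adjusted p = 0.0355) and 3 lower, and 1026 and 854 of all genes. Levels under or near the array medians (Itgae, Itgax, Itgb6, Lama1, and Itgal in exposed mice other than mouse 4) are the least certain.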
